A study of Mus musculus with 4 samples.

Results

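Oxidative phosphorylation is the route by which mitochondria turn the energy of reduced cofactors into ATP. Electrons pass from complex I (NADH dehydrogenase) or complex II (succinate dehydrogenase) through complex III (cytochrome c reductase) and cytochrome c to complex IV (cytochrome c oxidase), and the proton gradient they build drives complex V (ATP synthase). Subunits come from both genomes: the nuclear ones are made on cytosolic ribosomes, which use eIF5, and the mitochondrial ones on mitochondrial ribosomes, which have their own initiation factors. In the testis some subunits have paralogs made mainly in germ cells, among them Cox6b2, Cox7b2 and Cox8c.

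The genes described here were chosen by name from the deposited table: those starting with Nduf, Uqcr or Atp5, those matching Cox4 to Cox8, Sdha to Sdhd, Cyc1, and the mitochondrially encoded mt-Nd, mt-Co, mt-Atp and mt-Cytb genes. They numbered 96 of 14984 genes, 89 encoded in the nucleus and 7 in mitochondria. The 7 were mt-Nd1, mt-Nd2, mt-Nd4, mt-Nd5, mt-Nd6, mt-Co1 and mt-Cytb, and the other 6 of the 13 proteins of the mouse mitochondrial genome were not analysed here. Among nuclear genes, Atp5g2, Atp5l, Cox6a2, Cox8b and Ndufb1 were also not analysed here.

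Ribosome-protected fragments were sequenced from mouse testes at day 10, an age at which the first germ cells enter meiosis. The 2 control libraries are labelled only as control, without their alleles. The 2 Eif5 cKO libraries came from a cross of Eif5fl/fl mice with Stra8-Cre mice. Stra8-Cre acts in germ cells, so Sertoli, Leydig and other somatic cells keep Eif5 by design. Whether the samples of a group are separate animals is not stated. The spread behind each p-value is therefore that between these libraries and may be technical. Whole testes were used, and fewer cells of a type cannot be told apart from fewer footprints per cell. The libraries hold footprints only, so a change in mRNA level cannot be told apart from a change in translation.

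The libraries held 2225964 to 2934609 reads. Values are the deposited ones, reads divided by 1 size factor per library. Eif5 itself had 365 and 304 in the controls and 173 and 266 in Eif5 cKO (log2 fold change -0.63, limma adjusted p = 0.319 after Benjamini-Hochberg adjustment). Cell type markers differed between the groups. Of 17 tested meiotic germ cell markers 17 were lower in Eif5 cKO, 12 of them at a limma adjusted p under 0.05, against 0.678% of all genes tested. Their median log2 fold change was -1.66. Their summed share of reads was 0.192% to 0.211% in control against 0.0591% to 0.0711% in Eif5 cKO. Of 15 spermatogonial markers 13 were lower, 3 of them at that threshold, with a median of -0.48 (0.216% to 0.259% and 0.134% to 0.151% of reads). Of 19 Sertoli cell markers 16 were higher, 1 of them at that threshold, with a median of 0.36. Their summed share was 2.73% to 3.53% of reads in control and 3.59% to 4.68% in Eif5 cKO. Clu had the highest values of this list and weighs most in that share. It had 35568 and 52646 in control against 70687 and 48370 in Eif5 cKO, and the groups overlapped. The median was 0.71 for 8 Leydig cell markers, 0.45 for 14 macrophage markers and -0.19 for 9 peritubular myoid markers, of which 0 passed. Their summed shares in control and in Eif5 cKO were 0.0747% to 0.0851% and 0.115% to 0.122% for Leydig cells, 0.0545% to 0.0609% and 0.0727% to 0.0807% for macrophages, and 0.314% to 0.324% and 0.258% to 0.305% for myoid cells. The markers with the smallest p in each list had log2 fold changes of -1.99 for Tex101 and -1.83 for Dpep3 (meiotic), -1.53 for Stra8 and -1.78 for Rhox13 (spermatogonial), and 1.44 for Hsd17b1 and 0.92 for Inha (Sertoli). For the other types they were 0.80 for Cyp11a1 and 0.85 for Star (Leydig), 0.76 for Adgre1 and 0.51 for Mrc1 (macrophage), and -0.35 for Cnn1 and -0.21 for Myh11 (myoid). The part of these shifts in the values below was not tested.

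No oxidative phosphorylation gene passed the test between Eif5 cKO and control testes. limma with Benjamini-Hochberg adjustment called 0 of the 92 members tested, against 0.678% of all 12095 genes tested (0.604% lower and 0.0744% higher in Eif5 cKO), and the lowest adjusted p was 0.184. An unadjusted p under 0.05 was found for 4 members (Cox7b2, Sdhb, Ndufa2 and Ndufa3), against 10.6% of all genes tested. The other 4 members, Atp5g1, Cox8c, Ndufab1 and Ndufb4, had too few reads to pass the filter on low counts. The median log2 fold change was -0.04 over the members and 0.003 over all genes tested, with 41 members positive and 51 negative. The edgeR quasi-likelihood test and DESeq2 on the recovered reads also called 0 members, with 3 unadjusted p-values under 0.05 each.

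The size of difference that the data allow was limited for most members. The 95% interval of the log2 fold change, not adjusted for the number of genes, lay within a 2-fold change in either direction for 75 of the 92 members, or 81.5%, against 47.1% of all genes tested. It lay within a 1.5-fold change for 18 members. The median standard error (SE) was 0.25 for the members and 0.34 over all genes tested. These shares were not matched for read level, on which the width of an interval depends. The groups did not overlap for 30 members, 21 lower and 9 higher in Eif5 cKO. That is 32.6% of the members, against 40.8% of all genes tested (20.9% lower and 20.0% higher). Members differed between replicates by a median of 0.26 in control against 0.24 in Eif5 cKO on the log2 scale, against 0.32 and 0.37 over all genes tested.

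**Figure D1:**
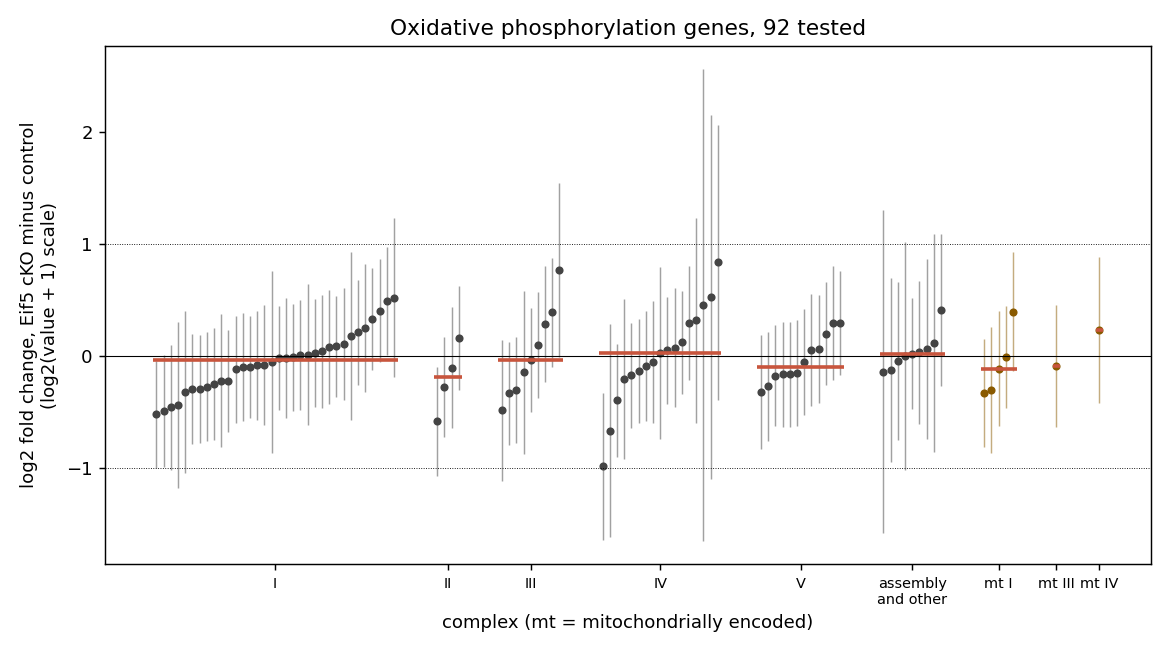
Log2 fold change (Eif5 cKO minus control, log2(value + 1) scale) of the 92 members tested, ordered within each complex, with nuclear-encoded members in grey and mitochondrially encoded ones (mt) in brown. Vertical lines are 95% intervals, red bars the median of each complex, and dotted lines a 2-fold change; the medians lie between -0.19 and 0.24.

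As a share of each library, the members together took 2.30% and 2.23% of reads in the controls, replicate 1 first as in all values below, against 2.33% and 2.12% in Eif5 cKO. The nuclear-encoded members took 1.42% and 1.43% in the controls against 1.39% and 1.34% in Eif5 cKO, so the groups did not overlap. Their means were 1.43% ± 0.00719 and 1.36% ± 0.0319 (SD, n = 2 each). Scaled by library totals, as shares are, the median log2 fold change was -0.08 over the tested nuclear-encoded members and -0.04 over all genes tested. The mitochondrially encoded members took 0.878% and 0.798% in the controls against 0.943% and 0.783% in Eif5 cKO, and here the groups overlapped. Mitochondrially encoded genes therefore held 38.2% and 35.8% of the members' reads in control against 40.5% and 36.9% in Eif5 cKO. On the log2 scale the ratio of mitochondrial to nuclear reads was -0.69 and -0.84 in control against -0.56 and -0.78 in Eif5 cKO. The difference of the means was 0.10, less than the spread between the Eif5 cKO libraries (SD 0.16). Shares were not tested, because the smallest two-sided p of an exact permutation test of 2 samples against 2 is 0.333.

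**Figure D2:**
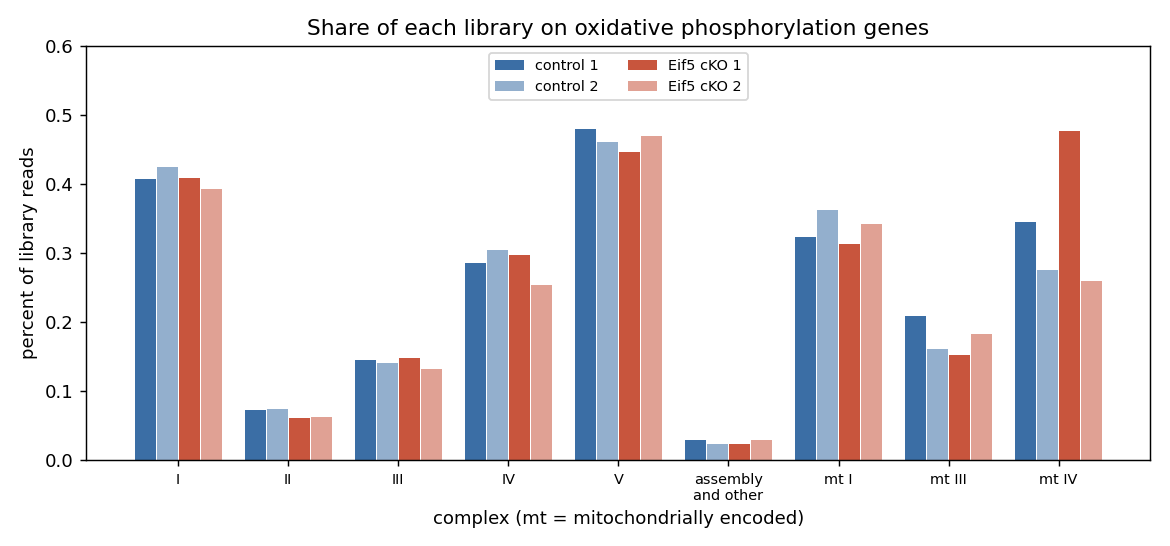
Percentage of each library's reads on the members of each complex, 1 bar per library, nuclear-encoded on the left and mitochondrially encoded (mt) on the right. Complex II is the only nuclear complex shown whose groups do not overlap (0.0736% and 0.0747% in control, 0.0616% and 0.0634% in Eif5 cKO), and mt IV holds mt-Co1 alone, which was high in Eif5 cKO replicate 1.

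Complex I passes electrons from NADH to ubiquinone. Of its 36 nuclear-encoded members, 34 were tested and 0 passed, with a median log2 fold change of -0.04, 14 positive and 20 negative. Ndufa2, an accessory subunit of the peripheral arm, had values of 358 and 476 in control against 299 and 277 in Eif5 cKO. Both Eif5 cKO libraries lay below both controls (log2 fold change -0.52, SE 0.24, limma adjusted p = 0.413). Ndufa3, a membrane-arm accessory subunit, had 272 and 388 in control against 499.9 and 419 in Eif5 cKO, with both Eif5 cKO libraries above the controls (0.49, SE 0.24, limma adjusted p = 0.452).

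The nuclear-encoded subunits of complex I that carry its flavin or iron-sulfur clusters, grouped after their values were seen, are Ndufv1, Ndufv2, Ndufs1, Ndufs7 and Ndufs8. Ndufs1, which holds several of the clusters, had 352 and 337 in control against 311 and 253 in Eif5 cKO (log2 fold change -0.29, SE 0.24). Ndufv1, the flavin- and NADH-binding subunit, had 328 and 265 in control against 245 and 242 in Eif5 cKO (-0.27, SE 0.24). Ndufv2, which works beside Ndufv1, had 497 and 551 in control against 458 and 440.5 in Eif5 cKO (-0.22, SE 0.23). In each of these, and in Ndufs7 (-0.46, SE 0.28), which holds the last cluster before ubiquinone, and Ndufs8 (-0.25, SE 0.25), both Eif5 cKO libraries lay below both controls, against 20.9% of all genes tested. Ndufs3, which carries no cofactor, had 60.4 and 86.1 in control against 55.7 and 50.2 in Eif5 cKO, also without overlap (-0.44, SE 0.37). None of these 6 subunits passed by limma, with 0 unadjusted p-values under 0.05, and because they were picked with their values known nothing is drawn from the count.

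The accessory subunits of complex I stabilise the complex and do not carry electrons. Of the 9 tested Ndufb subunits of the membrane arm, each overlapped between the groups, with log2 fold changes from -0.32 for Ndufb2 to 0.18 for Ndufb3. Ndufa5, of the peripheral arm, had 402 and 388 in control against 574 and 476 in Eif5 cKO, higher in both (0.40, SE 0.23, limma adjusted p = 0.555). Ndufs5 was at 0.52 (SE 0.35) and Ndufa1, an X-linked membrane-arm subunit, at -0.30 (SE 0.24), and both overlapped. Ndufab1, the mitochondrial acyl carrier protein, had 3 and 13 reads in control against 5 and 3 in Eif5 cKO, and Ndufb4 had 3 and 7 reads in control against 7 and 8 in Eif5 cKO; neither passed the filter.

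Initiation sequence was looked up because eIF5 acts at the start codon. TISU, the translation initiator of short leaders, is a start codon element known from mRNAs with very short 5′ leaders, which it lets initiate with little scanning; its letters are also a binding motif of the factor YY1. RefSeq promoter windows (GRCm38.p6, 250 bases before to 50 after the annotated transcription start) were found for 73 of the 89 nuclear members. The motif searched, on both strands, is the run of capitals in the sequences below. It was in the windows of 5 of these members, or 6.85%, and of 0.755% of all 27025 genes with a window. In these 5 genes the match was on the sense strand, with the A of its ATG at base 28 to 39 counted from 1 at the annotated start. The matches are shown with the motif in capitals; sequences run 5′ to 3′ on the gene's strand, at chr6:126849095-126849124 (minus strand, Ndufa9), chr10:80249464-80249493 (plus, Ndufs7), chr13:114388045-114388068 (minus, Ndufs4), chr13:73328433-73328458 (minus, Ndufs6) and chr7:25619431-25619460 (plus, Atp5sl).
Ndufa9: ttgtgggagAAGATGGCGGCcgccgtccgc
Ndufs7: gccgaggccAAGATGGCGGCgctggcgggt
Ndufs4: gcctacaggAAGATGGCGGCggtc
Ndufs6: gtcaccggcAAGATGGCGGCggtgct
Atp5sl: ttacctggcAAGATGGCGGCgcccagagcg

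The 5 genes with this motif did not share a direction. Ndufa9, an accessory subunit at the junction of the complex I arms, had 364 and 383 in control against 210.2 and 335 in Eif5 cKO (log2 fold change -0.49, SE 0.25). Ndufs7 had 154 and 178 in control against 109 and 133 in Eif5 cKO. Ndufs4, needed late in complex I assembly, lay the other way, with 939 and 986 in control against 1316 and 1113 in Eif5 cKO (0.33, SE 0.23). Ndufs6 had 88.1 and 98.7 in control against 88.6 and 99.6 in Eif5 cKO (0.01, SE 0.31), and Atp5sl, the complex I assembly factor also named Dmac2, had 79.2 and 59.7 in control against 78.4 and 108 in Eif5 cKO (0.41, SE 0.34). Their median log2 fold change was 0.01, against -0.04 over the 65 tested members with a window but no match. Over all 172 tested genes with the motif, matched by RefSeq symbol, the median was -0.12 and 0 were called by limma, against 0.678% of all genes tested.

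Complex II, which also works in the citric acid cycle, has only nuclear-encoded subunits, and 0 of its 4 passed (median log2 fold change -0.19, 1 positive and 3 negative). Sdhb, the iron-sulfur subunit (chr4:140961271-140979198, GRCm38), had 432 and 386 in control against 227 and 326 in Eif5 cKO. Both Eif5 cKO libraries lay below both controls (log2 fold change -0.58, SE 0.24, 95% interval -1.07 to -0.10, limma adjusted p = 0.341). Without Eif5 cKO replicate 1 the Sdhb value was -0.32, and without Eif5 cKO replicate 2 it was -0.84. Sdha, the flavoprotein subunit, had 781 and 778 in control against 637 and 648 in Eif5 cKO, again without overlap (-0.28, SE 0.22, limma adjusted p = 0.707). The membrane anchors Sdhc (0.16, SE 0.23) and Sdhd (-0.11, SE 0.27) overlapped between the groups. Summed over its 4 genes, complex II took 0.0741% ± 0.000774 of control and 0.0625% ± 0.00121 of Eif5 cKO reads (SD, n = 2 each), a log2 ratio of -0.25.

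Complex III passes electrons from ubiquinol to cytochrome c, and 0 of its 9 nuclear-encoded members passed (median log2 fold change -0.04, 4 positive and 5 negative). Uqcr11, a small accessory subunit, had 55.5 and 35.6 in control against 96.6 and 60.1 in Eif5 cKO, higher in both Eif5 cKO libraries (0.76, SE 0.38, limma adjusted p = 0.478). Uqcrfs1, the Rieske iron-sulfur protein, had 284 and 246 in control against 302 and 397 in Eif5 cKO, also without overlap (0.39, SE 0.24, limma adjusted p = 0.599). The large structural subunits lay the other way. Uqcrc1 had 540.3 and 506 in control against 389 and 442 in Eif5 cKO (-0.33, SE 0.23), and Uqcrc2 had 388 and 346 in control against 312 and 282 in Eif5 cKO (-0.30, SE 0.23), both without overlap. Cyc1, the cytochrome c1 subunit, overlapped between the groups (0.10, SE 0.23). Among the small accessory subunits, Uqcrq had 499 and 513 in control against 902 and 421 in Eif5 cKO, and Uqcr10 had 118 and 139 in control against 67.0 and 124 in Eif5 cKO, so a single Eif5 cKO replicate set each value (0.28 and -0.49). Uqcrh (-0.04, SE 0.23) and Uqcrb (-0.15, SE 0.36) overlapped as well.

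Complex IV reduces oxygen, and 0 of its 17 tested nuclear-encoded members passed (median log2 fold change 0.03, 9 positive and 8 negative). Ndufa4, named for complex I, is counted here as a cytochrome c oxidase subunit together with its paralog Ndufa4l2. The smallest p of all members belonged to Cox7b2 (chr5:71442823-71548205, GRCm38), the testis paralog of Cox7b. Cox7b2 had 97.9 and 173 in control against 65.9 and 64.6 in Eif5 cKO. Both Eif5 cKO libraries lay below both controls and close to each other, with a mean 2.08-fold lower (log2 fold change -0.99, SE 0.33, 95% interval -1.65 to -0.33, limma adjusted p = 0.184). The value depended on the controls: it was -1.40 without control replicate 1 and -0.58 without control replicate 2. Cox7b itself had 154 and 228 in control against 201 and 194 in Eif5 cKO, with both Eif5 cKO libraries between the controls (0.07, SE 0.26).

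Of the other testis paralogs of complex IV, Cox6b2 overlapped between the groups and Cox8c, on few reads, did not. Cox6b2 had 46.5 and 65.4 in control against 56.8 and 55.6 in Eif5 cKO, between the controls (log2 fold change 0.03, SE 0.38), and its widely expressed paralog Cox6b1 was at 0.05 (SE 0.24). Cox8c, which did not pass the filter, had 8.98 and 9.18 in control against 4.54 and 7.18 in Eif5 cKO (11 and 8 reads against 4 and 8), lower in both Eif5 cKO libraries. Its widely expressed paralog Cox8a was at 0.29 (SE 0.25). Cox4i1, a large nuclear-encoded subunit that binds ATP, had 4151 and 4593 in control against 4942 and 3574 in Eif5 cKO, so the Eif5 cKO libraries lay on either side of the controls (-0.06, SE 0.27). Its lung-enriched paralog Cox4i2 was at 0.53 (SE 0.80), on 6 to 18 reads per library. Cox7a1, the heart and muscle form, had 36.7 and 53.9 in control against 34.1 and 22.4 in Eif5 cKO (-0.67, SE 0.47), without overlap. Cox7a2 was at -0.14 (SE 0.23) and Cox7a2l, which helps join complexes III and IV, at 0.32 (SE 0.45). Cox5a, a matrix-side subunit with the second smallest p of the complex, had 252 and 259 in control against 181 and 208 in Eif5 cKO (-0.40, SE 0.25, limma adjusted p = 0.603). Cox5b, the zinc-binding subunit, was at -0.21 (SE 0.35) and Cox6c at -0.17 (SE 0.23). Cox7c had 14.7 and 14.9 in control against 32.9 and 22.4 in Eif5 cKO, higher in both on few reads (0.84, SE 0.61, 95% interval -0.39 to 2.06). Cox6a1 was at 0.12 (SE 0.23), Ndufa4 at -0.09 (SE 0.24) and Ndufa4l2, on 3 to 12 reads per library, at 0.45 (SE 1.04).

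**Figure D3:**
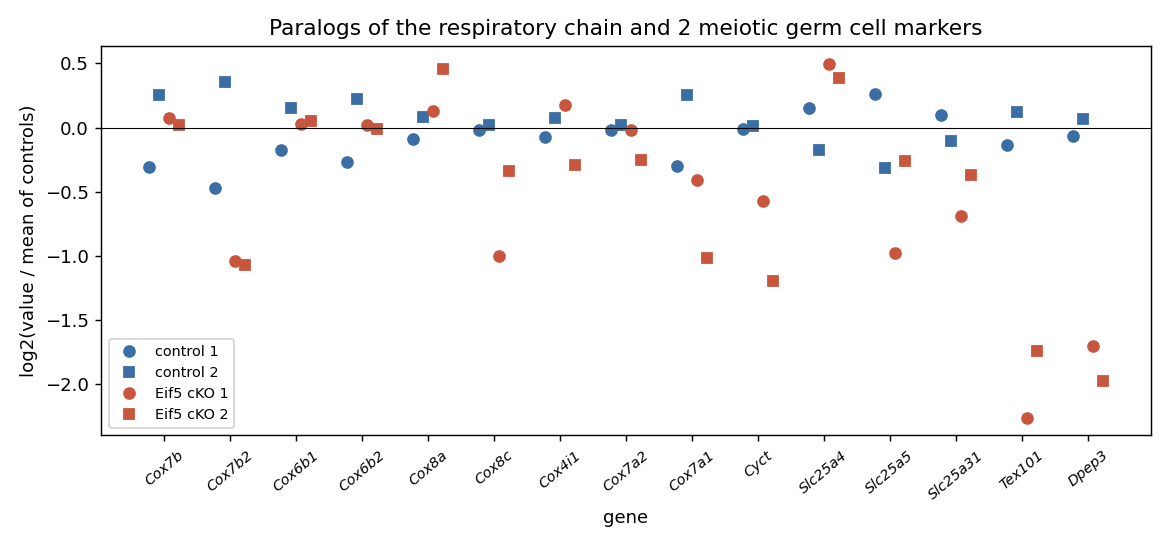
Value of selected genes in each library relative to the mean of the controls, on the log2 scale, with controls in blue and Eif5 cKO in red (circles replicate 1, squares replicate 2). Cox7b2, Cyct, Slc25a31, Cox8c and Cox7a1 lie below the controls in both Eif5 cKO libraries, and Cox6b2 lies between the controls. Cox7a1 is the heart and muscle form, and Tex101 and Dpep3 are meiotic germ cell markers for scale.

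Complex V makes ATP, and 0 of its 12 tested members passed (median log2 fold change -0.10, 5 positive and 7 negative). The catalytic head subunits Atp5a1 (-0.05, SE 0.24) and Atp5b (0.06, SE 0.25) overlapped between the groups. Atp5c1, the central stalk subunit, had 1093 and 1377 in control against 1540.5 and 1473 in Eif5 cKO, higher in both (0.30, SE 0.23, limma adjusted p = 0.698). Atp5d (-0.17, SE 0.23) and Atp5e (-0.15, SE 0.24), which complete the central stalk, were lower in both Eif5 cKO libraries than in both controls. Atp5f1, the peripheral stalk subunit now named Atp5pb, had 493 and 512 in control against 286 and 566 in Eif5 cKO, so its Eif5 cKO libraries lay on either side of the controls (-0.32, SE 0.25, limma adjusted p = 0.703). Of the other stalk subunits, Atp5j (-0.18, SE 0.22) did not overlap between the groups, whereas Atp5h (0.29, SE 0.25) and Atp5o (0.06, SE 0.24) did. The ring that rotates in the membrane is built from subunit c, whose mature form is the same from Atp5g1, Atp5g2 and Atp5g3. Atp5g3 had 792 and 754 in control against 753 and 1044 in Eif5 cKO (0.20, SE 0.23).

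Atp5g1 (chr11:96072793-96075694, GRCm38) had 1 read in each control library and 7 and 13 reads in the Eif5 cKO libraries. Scaled by the size factors, the summed reads were 10.5 times higher in Eif5 cKO, with an exact 95% counting interval of 2.55 to 92.7 that leaves out the variation between samples. With no filter on low counts, limma gave Atp5g1 an adjusted p of 0.507. Reads shared with near-identical copies may be missing or misplaced for Atp5g1, as for Ndufb4, Ndufab1 and other members with many pseudogenes, because the handling of multi-mapping reads is not given in the sources used here.

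The assembly and other group held the 7 Ndufaf genes with Atp5s and Atp5sl, and 0 of the 9 passed (median log2 fold change 0.02, 6 positive and 3 negative). Their values ran from -0.14 for Atp5s to 0.41 for Atp5sl. Ndufaf5, a modifier of Ndufs7, had 49.0 and 49.4 in control against 48.8 and 41.3 in Eif5 cKO (-0.13, SE 0.41), the single member of the group whose libraries did not overlap.

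Nuclear respiratory factor 1 (NRF-1) and the ETS factor GABP are known regulators of nuclear-encoded respiratory genes. The palindrome of NRF-1, given by the capitals below, was in the 300-base windows of 6 of the 73 members (8.22%) and of 1.07% of all genes with a window. The ETS motif CCGGAAG, on either strand, was in those of 16 members (21.9%) and of 9.93% of all genes. The NRF-1 matches are shown with 10 bases on each side and the motif in capitals, on the gene's strand, at chr5:108434430-108434459 (minus, Atp5k), chr5:115349101-115349130 (minus, Cox6a1), chr9:108936668-108936697 (plus, Uqcrc1), chr4:24897960-24897989 (plus, Ndufaf4), chr2:140170652-140170681 (plus, Ndufaf5) and chr17:56717692-56717721 (plus, Ndufa11), all GRCm38.p6.
Atp5k: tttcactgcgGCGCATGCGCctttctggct
Cox6a1: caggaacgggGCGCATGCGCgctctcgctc
Uqcrc1: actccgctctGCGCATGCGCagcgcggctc
Ndufaf4: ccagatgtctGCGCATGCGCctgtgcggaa
Ndufaf5: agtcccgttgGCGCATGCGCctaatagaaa
Ndufa11: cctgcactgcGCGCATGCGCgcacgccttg

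The median log2 fold change was -0.18 over the 6 members with the NRF-1 palindrome and -0.04 over the 16 with the ETS motif, against -0.02 over the members without each motif. Of the 6, 4 were negative and 2 positive, and 0 passed by limma, with 0.678% of all genes called. The matches are descriptions of sequence, and footprint levels do not measure binding of these factors.

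The 7 mitochondrially encoded genes varied more between replicates than the nuclear-encoded ones. Their median difference between replicates was 0.33 in control against 0.47 in Eif5 cKO on the log2 scale, against 0.24 and 0.24 for the nuclear-encoded members. None passed, the lowest adjusted p by limma being 0.635 and the count of unadjusted p-values under 0.05 being 0, and the median log2 fold change was -0.09 with 2 positive and 5 negative. For each of the 7 the libraries of the groups overlapped, against 40.8% of all genes tested without overlap. All 7 intervals lay within a 2-fold change.

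In complex IV, mt-Co1 (MT:5328-6872) encodes the subunit with the oxygen-reducing site. It had 8265 and 7026 in control against 12442 and 6469 in Eif5 cKO, so Eif5 cKO replicate 1 was the highest and Eif5 cKO replicate 2 the lowest library (log2 fold change 0.24, SE 0.32). In complex III, mt-Cytb (MT:14145-15288) encodes cytochrome b. It had 4999 and 4109 in control against 3972 and 4559 in Eif5 cKO (-0.09, SE 0.27), with the groups interleaved.

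The other 5 encode membrane-arm subunits of complex I. mt-Nd1 (MT:2751-3707) had 1817 and 1136 in control against 1205 and 1079 in Eif5 cKO (-0.33, SE 0.24), with control replicate 1 above the other 3 libraries. mt-Nd2 (MT:3914-4951) had 1072 and 956 in control against 962 and 1052 in Eif5 cKO (-0.01, SE 0.22). mt-Nd4 (MT:10167-11544) had 1404 and 2236 in control against 945 and 2179 in Eif5 cKO (-0.30, SE 0.28). For mt-Nd4 replicate 1 lay below replicate 2 in both groups, and for mt-Nd2 the libraries lay close together. mt-Nd5 (MT:11742-13565) had 1955 and 3026 in control against 1911 and 2649 in Eif5 cKO (-0.11, SE 0.26), with its libraries in the same order as mt-Nd4. mt-Nd6 (MT:13552-14070), the only one of the 7 read from the light strand, had 1509.8 and 1899.7 in control against 3163 and 1568 in Eif5 cKO (0.39, SE 0.26). Eif5 cKO replicate 1 alone stood above the other libraries, as for mt-Co1.

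Per kilobase of gene, levels of the 7 could be compared, since these genes have no introns and their RefSeq length is close to that of the coding sequence. The range over the 4 libraries was 4187 to 8053 per kb for mt-Co1, 2909 to 6094 for mt-Nd6 and 3472 to 4370.1 for mt-Cytb. It was 1128 to 1899 for mt-Nd1, 1048 to 1659 for mt-Nd5, 686 to 1623 for mt-Nd4 and 921 to 1032 for mt-Nd2. In each library mt-Co1, mt-Nd6 and mt-Cytb therefore lay above mt-Nd1, mt-Nd2, mt-Nd4 and mt-Nd5, and within each of these sets neighbouring ranges overlapped. mt-Nd5 and mt-Nd6 share bases at their ends on opposite strands, and reads there cannot be told apart unless strand was used in counting, which is not given in the sources used here.

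**Figure D4:**
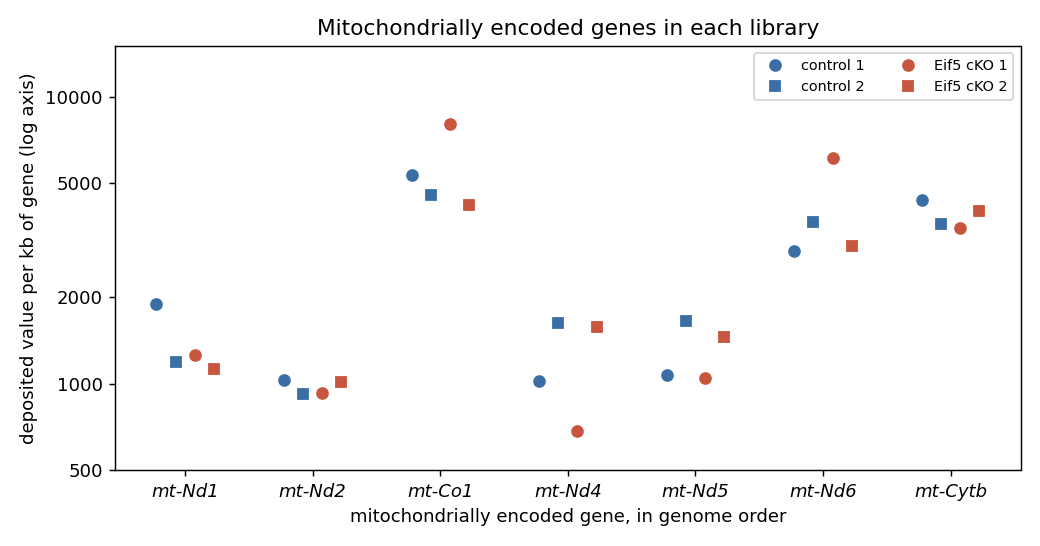
Deposited value per kilobase of gene (log axis) of the 7 mitochondrially encoded genes in each library, in genome order, with controls in blue and Eif5 cKO in red (circles replicate 1, squares replicate 2). mt-Co1, mt-Nd6 and mt-Cytb lie above the other 4 genes in each library, and Eif5 cKO replicate 1 is the highest library for mt-Co1 and mt-Nd6 and the lowest for mt-Nd4.

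Mitochondrial genes that encode no protein also held reads, which need not be ribosome footprints. The 12 mitochondrial tRNA genes in the table took 2.54% ± 0.507 of reads in control against 1.84% ± 0.240 in Eif5 cKO (SD, n = 2 each), most of it on mt-Tv, and the 2 ribosomal RNA genes took 0.176% and 0.182% in control against 0.156% and 0.152% in Eif5 cKO. Of the 12 tRNA genes, mt-Tp and mt-Tt were highest in Eif5 cKO replicate 1, the library in which mt-Nd6 and mt-Co1 were highest. mt-Tp, encoded on the light strand, had 244 and 267 in control against 834 and 209 in Eif5 cKO, and mt-Tt, encoded on the heavy strand, had 70.2 and 91.8 in control against 178 and 39.5 in Eif5 cKO. The other light-strand tRNA genes in the table did not share this: mt-Tq had 49.8 and 74.6 in control against 25.0 and 69.1 in Eif5 cKO, mt-Ta was highest in control replicate 1 and mt-Tc in control replicate 2. mt-Ts2, mt-Tl2 and mt-Tq had their libraries in the same order as mt-Nd4, with 563 and 988 in control against 279 and 906 in Eif5 cKO for mt-Ts2, which lies between mt-Nd4 and mt-Nd5. These tRNA genes were named after their values were seen. The part of fragments other than footprints in the values of the mitochondrially encoded members was not tested.

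The wider machinery of respiration was examined in 5 lists. Of 32 tested assembly factors of complexes I to V outside the members, 0 passed (median log2 fold change -0.03). The lowest p belonged to Ecsit, a complex I assembly factor with a second role in immune signalling, with 126 and 108 in control against 46.6 and 44.9 in Eif5 cKO (-1.33, SE 0.34, limma adjusted p = 0.0516). Ecsit passed in 7 of 15 alternatives: by edgeR (adjusted p = 0.0391), and by limma without Eif5 cKO replicate 1 or 2 (adjusted p = 0.0283 and 0.0273), with the replicate number as a block (0.0458), with TMM factors (0.0466), with library totals (0.0343) and with a pseudocount of 4 (0.0476). It did not pass by DESeq2 (adjusted p = 0.120) or by limma without control replicate 1 or 2 (adjusted p = 0.702 and 0.399), the range over the alternatives being 0.0273 to 0.702. Coa6, a complex IV copper chaperone, passed only without Eif5 cKO replicate 2, having 68.2 in Eif5 cKO replicate 1 and 10.8 to 20.4 in the other libraries. Tmem186, also of complex I assembly, was at -1.24 (SE 0.69).

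Among 9 tested mobile carriers, exchangers and inhibitors 0 passed by limma, with 2 unadjusted p-values under 0.05 (median 0.04). Both were germ cell forms. Cyct, the testis cytochrome c, had 161 and 164 in control against 109 and 70.9 in Eif5 cKO, lower in both (-0.88, SE 0.30, limma adjusted p = 0.199). Without Eif5 cKO replicate 1, Cyct passed by limma (adjusted p = 0.0377, with a range of 0.0377 to 0.760 over the 15 alternatives). Slc25a31, the germ cell ADP/ATP carrier, had 363 and 315 in control against 210.2 and 262 in Eif5 cKO (-0.52, SE 0.24, limma adjusted p = 0.423). Of its somatic paralogs, named after their values were seen, Slc25a4, the heart and muscle form, lay the other way, with 508 and 405 in control against 645 and 598 in Eif5 cKO (0.45, SE 0.23). Slc25a5 had 66.9 and 44.8 in control against 28.4 and 46.7 in Eif5 cKO and overlapped between the groups (-0.57, SE 0.43). The lower values of Cox7b2, Cyct and Slc25a31 stood beside the meiotic marker share of 0.201% in control against 0.0651% in Eif5 cKO given above, and the part of that shift in them was not tested. Of the other testis paralogs of complex IV, Cox8c was lower on few reads and Cox6b2 lay between the controls (0.03, SE 0.38). Lower values were not confined to germ cell forms: Cox7a1, the heart and muscle form, was also lower in both Eif5 cKO libraries (-0.67, SE 0.47).

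Of the 19 genes of the citric acid cycle and pyruvate dehydrogenase 0 passed (median log2 fold change near zero at -0.0004), and the lowest p-values were those of Pdhx (-0.63, SE 0.29) and citrate synthase, Cs (-0.46, SE 0.23). Among 19 tested genes of mitochondrial genome expression 0 passed (median -0.06), with Mtif3, a mitochondrial initiation factor, at -0.79 (SE 0.49) and Lrpprc, which stabilises mitochondrial mRNAs, at -0.41 (SE 0.28). Among 6 tested regulators of mitochondrial biogenesis 0 passed (median -0.17). Esrra, a nuclear receptor for respiratory genes, was at 2.76 (SE 1.19) on values of 0 to 21.6, and Pprc1, a relative of PGC-1, at -0.38 (SE 0.25). In these 3 lists 1, 0 and 1 genes had an unadjusted p under 0.05 by limma, and 1 among the assembly factors.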

How the data were processed

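The 4 mouse testis libraries were made with the QEZ-seq footprinting kit, per the labels' protocols. The submitters' processing notes name Bowtie2, STAR, featureCounts and the build GRCm38 but no versions; the handling of strand and of multi-mapping reads is not stated there. The deposited signal, although its columns are named raw counts, was read counts divided by 1 size factor per library. Multiplying back gave whole reads for 100% of values (relative tolerance 1e-06), on which edgeR called 92 genes, and 0 columns belonged to other samples. limma 3.58.1 (R 4.3.3) with an intensity trend modelled log2(value + 1) by group over the 12095 genes passing filterByExpr of edgeR 4.0.16 (minimum count 10). On this log2(value + 1) scale the change of low genes is understated. Tests were two-sided, and an adjusted p under 0.05 was a call, which rested on 2 residual and 37.0 prior degrees of freedom. Shares are percentages of recovered reads, and the SD given with them is the spread between the 2 libraries of a group. No molecular identifiers are stated for these reads, and the interval on the summed Atp5g1 reads covers counting error only. Members were matched to RefSeq by symbol (86), synonym (3) or mitochondrial name (7). The limma fit, but not edgeR or DESeq2, was tested on simulated reads.

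The members and lists were chosen with earlier results of these data known. Named genes were those called (0), the mitochondrially encoded ones, the 2 smallest p-values in each complex and list, and the paralog series; members described by role were added after their values were seen. Levels per coding length could not be compared among nuclear genes, whose coding lengths were not used here. Alternatives were other scalings, pseudocounts and filters, edgeR, DESeq2 1.42.0, each library left out, and a replicate block. The values of 1 member are counted in the totals and not reported here by name.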

Additional observations from a re-analysis of the deposited data

How the results depend on the processing

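The count of members called stayed at 0 in the 16 alternatives run: other scalings, pseudocounts and filters, edgeR, DESeq2, each library left out, a replicate block, and the 3 Sdhaf genes counted as members. Unadjusted p-values under 0.05 numbered 2 to 11 among the members, the 11 without Eif5 cKO replicate 2. The nuclear median log2 fold change ran from -0.08 (library totals) to -0.02 (upper-quartile factors), and from -0.13 to 0.02 with 1 library left out. The mitochondrial median ran from -0.14 to -0.08, and from -0.19 to 0.05 with 1 library left out, so the sign of neither median was stable. The difference in the log2 ratio of mitochondrial to nuclear reads ran from -0.008 to 0.21 with 1 library left out. The replicate numbers are not stated to pair samples (r = -0.05 between deviations of replicate 1 of each group); with the replicate number as a block 0 members and 100 genes passed, against 82 without it. Over all genes, leaving out 1 library gave 10 to 346 calls, and DESeq2 56. With 2 samples a group, changes smaller than the intervals given could not be detected. Larger changes could also go uncalled, because the intervals are not adjusted for the number of genes. Cox7b2, with a 95% interval of -1.65 to -0.33, had a limma adjusted p of 0.184.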
